A study of Mus musculus with 6 samples.

Results

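Irf7, Irf9, Stat2, Isg15, Ifit3, Mx1, Oasl1, Bst2 and Ifih1, a set of interferon response factors and core interferon-stimulated genes, were followed by symbol through the deposited count table of a mouse acute erythroid leukemia (AEL) study. Of these 9 genes 8 had a row among the 13007 genes of the table, and Isg15 was not analysed here. Poly-A RNA was read from equal numbers of sorted bone marrow cells, in 3 AEL and 3 NC libraries of C57BL/6 mice, to learn how gene expression in the leukemic cells differs from that of normal erythroid precursors. The AEL libraries came from GFP-positive leukemic marrow cells, labelled Trp53-/- (lacking the tumor suppressor p53) and ERG-expressing, into which ERG, an ETS family transcription factor, had been introduced together with GFP. The NC libraries, labelled WT, came from normal marrow stained with antibodies to Ter119 (red cell lineage) and CD71 (transferrin receptor) and then sorted. SETBP1 and ASXL1 mutations are named in the source label of every library, also of NC, where they contradict the WT genotype. The titles call the replicates biological without naming animals, and no label used here gives an age. AEL cells were thus transduced and sorted on GFP, and neither is stated for NC cells. The Trp53 genotype label differs as well, so leukemia, genotype, transduction and sort cannot be told apart in any difference below.

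Type I interferons bind the receptor chains IFNAR1 and IFNAR2, whose kinases JAK1 and TYK2 phosphorylate STAT proteins. STAT2 joins IRF9 in the complex ISGF3, which binds interferon-stimulated response elements and switches on antiviral genes. IRF7, itself a product of that response, drives interferon production, and many of the target genes are also transcribed at a low level in unstimulated blood cells.

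The response element is shown in the promoters because the listed factors bind it and the listed targets are known for it. Its core, GAAA followed by any 2 bases and again GAAA, was searched on both strands of the RefSeq promoter windows (build GRCm38.p6, from 250 bases before to 50 bases after each gene's start). Of 32851 windows of all genes 3.44% held it. Of the 8 windows found for 7 of the analysed genes, 4 held it, those of Bst2, Stat2, Ifit3 and Ifih1, and the windows of Oasl1 and Irf7 and both windows of Irf9 did not hold these letters. In the Ifih1 window the match lay after the start. Capitals below mark the matches, each stretch is written 5′ to 3′ on the strand of its gene, and a match that opens and ends with TTTC is the same core on the other strand.
Bst2, chr8:71537557-71537632, minus strand: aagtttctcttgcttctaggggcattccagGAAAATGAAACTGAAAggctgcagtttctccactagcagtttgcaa
Ifit3, chr19:34583343-34583446, plus strand: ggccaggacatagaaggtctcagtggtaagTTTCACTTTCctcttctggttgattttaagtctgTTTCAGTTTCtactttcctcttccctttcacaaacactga
Stat2, chr10:128270248-128270315, plus strand: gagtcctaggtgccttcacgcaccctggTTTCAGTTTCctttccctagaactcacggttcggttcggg
Bst2 carried 2 overlapping cores that began 130 and 124 bases before the start, Ifit3 carried 2 separate cores that began 156 and 122 bases before it, and Stat2 carried 1 that began 222 bases before it. These matches are letters in a window and were not measured as binding sites in these cells.

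Library totals ran from 8171676 to 9945330 counts. Replicates varied more in AEL, where the coefficient of biological variation was 44.2%, than in NC, where it was 9.15%. Erythroid markers were present in both groups, with 10 of 10 listed genes found. Their summed levels were 3314 to 9169 CPM in AEL and 38103 to 50724 CPM in NC, and 8 of them fell and 0 rose. CPM values here are scaled to each library's total times its TMM factor. Markers of other marrow cells were far lower in AEL. The 14 macrophage and monocyte genes summed to 10.8, 264 and 93.3 CPM in AEL replicates 1, 2 and 3, against 4340 to 5188 CPM in NC, and 13 of them fell. The 11 neutrophil genes summed to 18.7, 1204 and 127 CPM in AEL and to 8057 to 9411 CPM in NC, and 9 of them fell. The 10 B cell genes summed to 1.69 to 2.75 CPM in AEL and 230 to 276 CPM in NC, and all 10 fell. None of these 35 genes was at 0 in all AEL libraries. Such cells express interferon-stimulated genes too, so these values stand beside every fall reported here, and their part in the falls was not tested. In bulk RNA, fewer cells of a type and less RNA per cell cannot be told apart.

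Of the 8 analysed genes 5 were lower and 1 was higher in AEL (edgeR quasi-likelihood test over 12427 genes, Benjamini-Hochberg adjusted p under 0.05). Over all genes tested, 29% were lower and 23.9% higher by the same rule. The median log2 fold change of the 8 genes, AEL over NC, was -1.07, against -0.05 over all genes tested. The 2 groups did not overlap for 6 of the 8 genes, and for 66% of all genes, so that share by itself is near the background. Without any single NC library the number of analysed genes called lower was 3, since Irf7 and Irf9 no longer passed. Calls were lost over the whole table too: 3599 genes were called lower with all libraries. Without NC replicate 1, 2 or 3 these were 2697, 2662 and 2682.

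**Figure D1:**
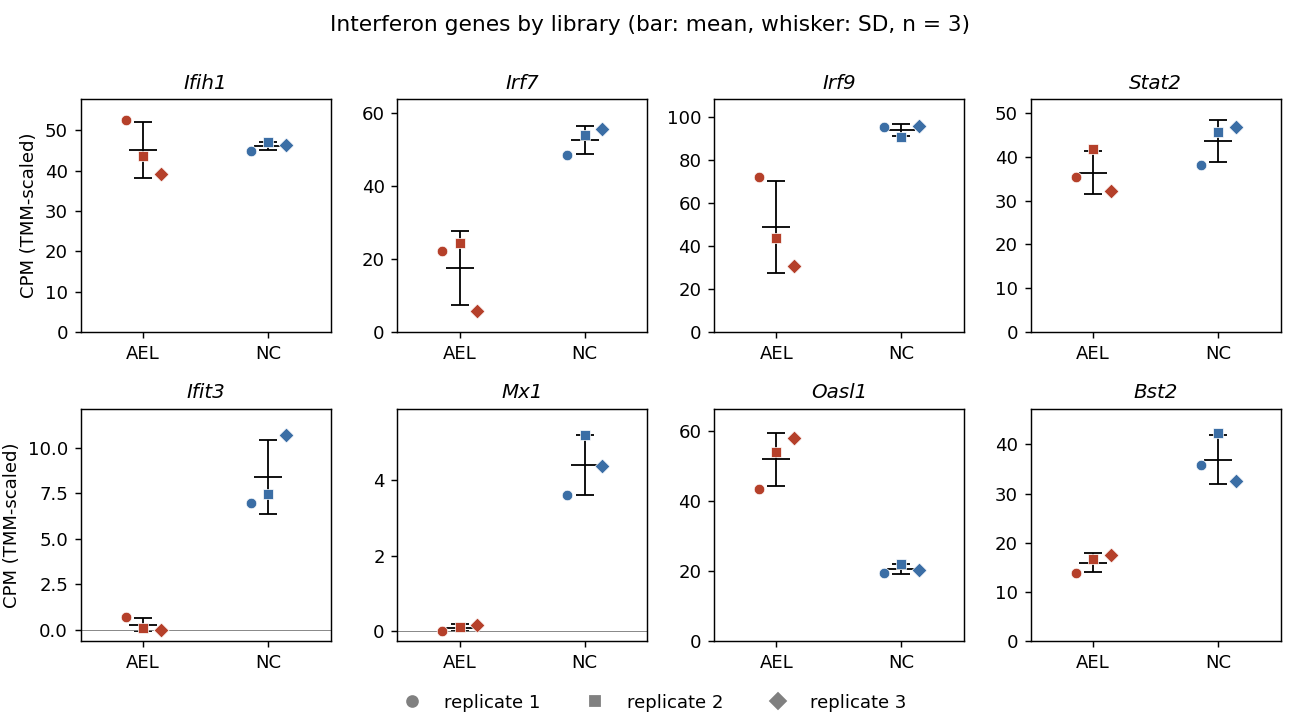
TMM-scaled CPM of the 8 analysed genes in each library, AEL left and NC right in each panel, with points for replicates 1 to 3, a horizontal bar for the mean and whiskers for the SD (n = 3). Irf7, Irf9, Ifit3, Mx1 and Bst2 lay lower in all 3 AEL libraries, Oasl1 lay higher in all 3, and Ifih1 and Stat2 overlapped.

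Irf7, the master regulator of type I interferon genes, had the lowest fold change of the 3 factors of the set. Irf7 (chromosome 7, 141262706 to 141266481, minus strand, GENCODE M21 on GRCm38) had 22.3, 24.2 and 5.86 CPM in AEL, compared with 48.4, 53.8 and 55.6 CPM in NC. AEL replicate 3 was low even among the AEL libraries, and no AEL library reached the lowest NC library. The log2 fold change was -1.59 (SE 0.48, edgeR adjusted p = 0.0292), and the adjusted p rose to 0.0707 to 0.0851 when any single NC library was left out. Irf7 overlaps Phrf1 on the opposite strand, and whether reads of the overlap were assigned by strand is not stated. Phrf1 was at 121 to 158 CPM in AEL and 106 to 121 CPM in NC (log2 fold change 0.33, edgeR adjusted p = 0.076).

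Irf9, the DNA-binding subunit of ISGF3 (chromosome 14, 55603571 to 55610030, plus strand), was at 72.2, 43.9 and 30.5 CPM in AEL, compared with 95.3, 90.7 and 95.6 CPM in NC. All AEL libraries lay below the NC libraries, replicate 1 least, at 76.9% of the NC mean, and replicate 3 most, at 32.5%. The log2 fold change was -0.94 (SE 0.30, edgeR adjusted p = 0.0338). That call ended when any single NC library was left out (adjusted p 0.0818 to 0.0932), without AEL replicate 2 (0.0581) and with library totals in place of TMM scaling (0.0525). Genes of chromosome 14 moved in the same libraries: the median log2(CPM + 1) difference from the NC mean over its 291 genes that averaged at least 10 CPM was -0.02, -0.67 and -0.70 in AEL replicates 1, 2 and 3. Irf9 itself lay at -0.38, -1.10 and -1.62 on the log2 CPM scale in those libraries, below the chromosome median in each, and the part of the chromosome in its fall was not tested. The annotation also has Irf9 overlapping Rnf31 on the same strand, a gene at 58.7, 31.4 and 34.6 CPM in AEL and 45.2 to 50.3 CPM in NC.

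Stat2, the other ISGF3 subunit of the set (chromosome 10, 128270559 to 128292849, plus strand), was at 35.4, 41.7 and 32.1 CPM in AEL, compared with 38.1, 45.6 and 46.9 CPM in NC. The groups overlapped. The test did not call it (log2 fold change -0.26, SE 0.17, edgeR adjusted p = 0.229).

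The sensor of the set was Ifih1, which encodes MDA5, a cytosolic receptor of long double-stranded RNA (chromosome 2, 62595798 to 62646255, minus strand). Ifih1 was at 52.7, 43.8 and 39.2 CPM in AEL, compared with 45.0, 47.0 and 46.4 CPM in NC. The AEL libraries lay on both sides of the NC libraries. The log2 fold change was -0.03 (SE 0.15, edgeR adjusted p = 0.879), and its sign was positive with library totals alone (0.15) and without AEL replicate 2 or 3.

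Among the effectors, Ifit3 and Mx1 were close to the detection limit in AEL. Ifit3, a protein of the IFIT family that binds foreign RNA in complexes with its relatives (chromosome 19, 34583531 to 34588731, plus strand), had 6, 1 and 0 counts in AEL and 54, 63 and 93 counts in NC. That is 0.676, 0.109 and 0 CPM in AEL and 6.97, 7.45 and 10.7 CPM in NC, where 3 counts correspond to 0.275 to 0.387 CPM. The summed rate was 35.0-fold lower in AEL (exact 95% interval 16.7 to 88.1, counting error only), and the fitted log2 fold change was -5.00 (SE 0.88, edgeR adjusted p = 0.0037). The fitted value of so low a gene moved with the settings, to -6.97 without AEL replicate 1, -4.36 without AEL replicate 3 and -1.34 with limma at a pseudocount of 5 CPM, and it passed in each. Ifit3b, named after its values were seen, is a close copy of Ifit3 beside it, so the split of reads between them is uncertain. Ifit3b stood at 0.225, 0 and 0 CPM in AEL and 1.68 to 3.00 CPM in NC, lower in AEL in the same way. The 322 genes of chromosome 19 had median differences of 0.05, -0.05 and -0.87 on the log2(CPM + 1) scale in AEL replicates 1, 2 and 3, and their part in the fall of Ifit3 was not tested.

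Mx1, an antiviral dynamin-like GTPase of which C57BL/6 mice are known to carry a defective allele (chromosome 16, 97447035 to 97462907, minus strand), had 0, 1 and 2 counts in AEL and 28, 44 and 38 counts in NC. In CPM this was 0, 0.109 and 0.183 in AEL and 3.61, 5.20 and 4.38 in NC. The 3 AEL counts against 110 NC counts gave a summed rate 42.7-fold lower in AEL (exact 95% interval 14.2 to 210, counting error only). The edgeR fit gave a log2 fold change of -5.25 (SE 0.63, adjusted p = 0.001). It was -5.96 without AEL replicate 3 and -0.88 with limma at a pseudocount of 5 CPM, and passed in both.

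Bst2, or tetherin, which holds budding viruses at the cell surface (chromosome 8, 71534255 to 71537456, minus strand), fell less and evenly. It was at 13.8, 16.6 and 17.5 CPM in AEL, compared with 35.7, 42.3 and 32.6 CPM in NC. Here AEL replicate 3 was the highest AEL library, in contrast to Irf7. The log2 fold change was -1.21 (SE 0.19, edgeR adjusted p = 0.00246), and all alternatives run kept it past the threshold. In mouse marrow, plasmacytoid dendritic cells express Bst2 and Irf7 strongly. Of 12 markers listed for those cells 9 were found and 8 tested, of which 5 fell and 2, Tcf4 and Runx2, rose. Their summed levels were 64.8 to 106 CPM in AEL and 99.5 to 122 CPM in NC. Most of the AEL sums came from the 2 that rose, Tcf4 at 46.8, 45.9 and 55.4 CPM and Runx2 at 52.1, 14.3 and 47.0 CPM. In NC, Tcf4 was at 30.6 to 37.9 CPM and Runx2 at 9.81 to 11.3 CPM. Each of the other found markers was at 2.17 CPM or less in AEL. In NC the highest of them, Tlr7, was at 22.1 to 28.6 CPM. Tlr7 and Tlr9, both of which fell, are also counted among the sensors and adaptors below. Pacsin1 was at 0 in all AEL libraries, and Siglech, a surface lectin of those cells, was at 0, 0.217 and 0.549 CPM in AEL and 7.10 to 9.10 CPM in NC.

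Oasl1 was the only analysed gene that rose. It belongs to the oligoadenylate synthetase family but lacks that enzyme activity, and in mice it is known to inhibit translation of Irf7 mRNA. Oasl1 (chromosome 5, 114923240 to 114937915, plus strand) stood at 43.6, 54.2 and 58.1 CPM in AEL, compared with 19.5, 22.1 and 20.4 CPM in NC. Each AEL library was at least at 211% of the NC mean, and the replicates of each group lay close together. The log2 fold change was 1.33 (SE 0.17, edgeR adjusted p = 0.00119), with a range of 1.14 to 1.52 over the alternatives, all of which passed. The 564 genes of chromosome 5 had a median log2 fold change of 0.10. The annotation places Gm13822, not analysed here, opposite Oasl1, and whether reads of the 2 strands were separated is not stated.

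**Figure D2:**
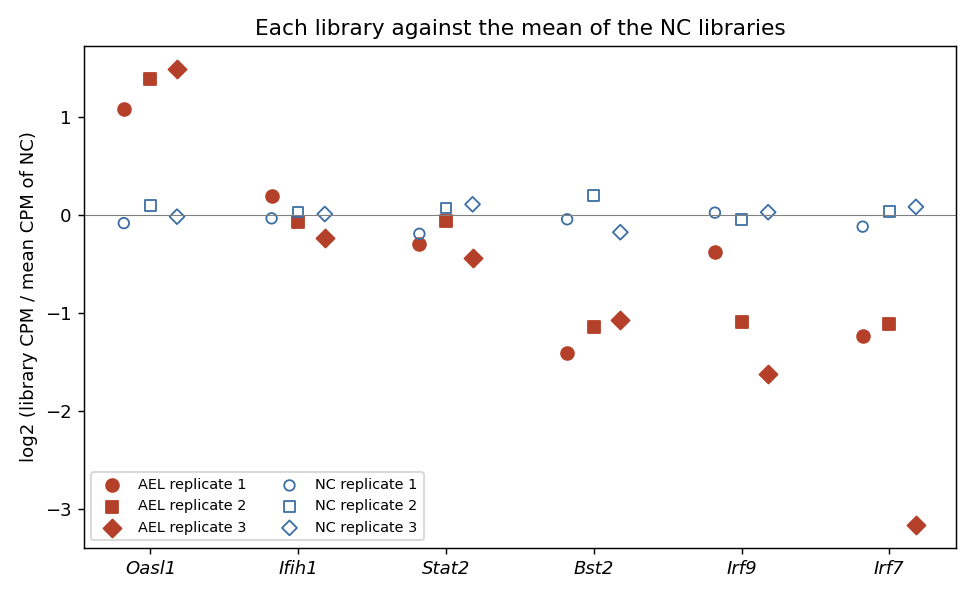
Log2 ratio of each library's CPM to the mean CPM of the NC libraries, for the 6 analysed genes with counts in every library; filled symbols are AEL replicates 1 to 3 and open symbols NC replicates 1 to 3. AEL replicate 3 lies at -3.17 for Irf7, at -1.62 for Irf9 and at 1.49 for Oasl1.

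Among the 6 analysed genes with counts in every library, the AEL libraries differed most in Irf7 and Irf9. For Irf7, AEL replicate 2 was 4.13-fold above replicate 3 (exact 95% interval 3.12 to 5.55, counting error only), and the highest NC library was 1.15-fold above the lowest. For Irf9, AEL replicate 1 was 2.37-fold above replicate 3 (2.07 to 2.71), and the NC ratio was 1.05. Stat2, Ifih1, Oasl1 and Bst2 had highest-to-lowest ratios of 1.30, 1.35, 1.33 and 1.26 within AEL, below the median ratio of 1.47 over 9342 genes that averaged at least 5 CPM in AEL. A ratio of at least 3 was found for 9.64% of those genes in AEL and for 0.0397% of 10087 such genes in NC, and Irf7 is 1 of the AEL ones. AEL replicate 3 was the lowest AEL library for 5 of the 8 analysed genes, namely Irf7, Irf9, Stat2, Ifit3 and Ifih1. AEL replicate 1 was the lowest for Mx1, Oasl1 and Bst2.

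Per kilobase of annotated exon, the order of the levels differed between the groups. Exon lengths join all annotated transcripts of a gene. For Irf7 their 3776 bases span its whole locus, and for Irf9 their 5386 bases cover most of it. The order of different genes is thus approximate, and the levels of Irf7 and Irf9 may be too low. In AEL, Oasl1 (19.9 ± 2.88 CPM per kb, SD, n = 3) and Bst2 (17.7 ± 2.10) stood highest and overlapped. Irf9, Stat2, Ifih1 and Irf7 followed at means of 9.07, 6.14, 5.54 and 4.62 CPM per kb, and each overlapped the next in that order. Ifit3 and Mx1 were last at 0.150 and 0.0257. In NC, Bst2 stood highest at 40.8 ± 5.49 CPM per kb, then Irf9 at 17.4 ± 0.518 and Irf7 at 13.9 ± 1.00, with no overlap between these 3. Oasl1 and Stat2 followed at 7.92 and 7.34 and overlapped, as did Ifih1 and Ifit3 at 5.65 and 4.80, and Mx1 was last at 1.16.

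The wider pathway was read from 118 other genes in 8 lists, of which 112 were tested. Of these, 57 fell and 7 rose, against 29% lower and 23.9% higher over all genes tested. The share called in either direction was 57.1%, against 52.8% over all genes, and the median log2 fold change was -1.29, against -0.05. The 7 that rose numbered 11 with library totals in place of TMM scaling and also 11 without AEL replicate 1. AEL replicate 3 was the lowest AEL library for 61 of 106 of them that had no tie for the lowest, 57.5%, against 33.2% of all tested genes without a tie.

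**Figure D3:**
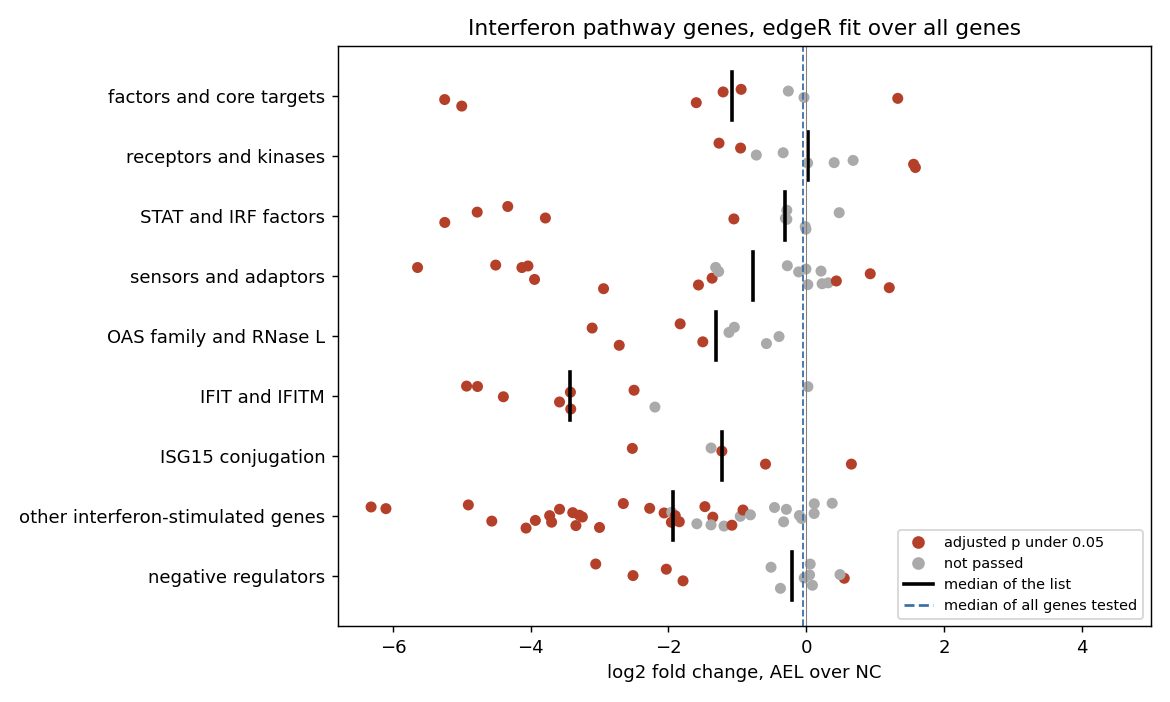
Log2 fold change, AEL over NC, of each tested gene of the interferon pathway by list; red points passed the edgeR test (adjusted p under 0.05), grey points did not, black ticks are list medians and the dashed line is the median of all genes tested. The IFIT and IFITM list has the lowest median, -3.42, and the receptor and kinase list lies at 0.02.

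Of 9 receptors and kinases 2 fell and 2 rose, so that 44.4% were called, against 52.8% of all genes tested. Ifnar1 was at 48.0, 51.4 and 42.2 CPM in AEL, compared with 54.7, 58.5 and 65.1 CPM in NC and did not pass (log2 fold change -0.33, edgeR adjusted p = 0.0836). Ifnar2, the other chain of the type I receptor, fell to 45.9 ± 9.05 CPM in AEL, compared with 88.7 ± 0.299 CPM in NC (SD, n = 3 each). Il10rb, a chain shared by the interleukin-10 and type III interferon receptors, fell by 1.27 on the log2 scale. Ifnlr1, the specific chain of the type III receptor, rose 2.95-fold, to 18.1, 12.5 and 23.2 CPM in AEL, compared with 5.03, 6.03 and 7.14 CPM in NC. Jak1 differed by 0.02 (edgeR adjusted p = 0.931), while Tyk2 rose to 249, 103 and 157 CPM in AEL, compared with 50.4, 60.3 and 59.0 CPM in NC. The 48 genes within 5 Mb of Tyk2 on chromosome 9 had median differences of 1.30, -0.09 and 0.68 in AEL replicates 1, 2 and 3, in the same order of libraries as Tyk2, and their part in its rise was not tested.

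Of the 11 tested genes among other STAT and IRF factors 5 fell and 0 rose, or 1 rose with library totals alone or without AEL replicate 1. The share called in either direction, 45.5%, was near that of all genes. All calls of the main test in this list were falls, and 29% of all genes tested fell. Irf1, an early interferon gamma target, was at 0.338, 1.74 and 0.641 CPM in AEL, compared with 30.4, 37.0 and 36.8 CPM in NC, 38.0-fold lower (log2 fold change -5.25, and -6.03 without AEL replicate 2). Irf8 and Irf4, factors of myeloid and lymphoid cells, fell by 4.33 and 4.78 on the log2 scale. The value of Irf8 was -3.72 without AEL replicate 1 and -5.12 without AEL replicate 2. Irf8 was at 0.225, 8.03 and 4.12 CPM in AEL replicates 1, 2 and 3, in the order that the summed macrophage markers of those libraries also had. That marker sum was lowest in AEL replicate 1, which was the lowest AEL library for 28 of the 106 wider genes without a tie. AEL replicate 3 was the lowest for 61 of them, and a link to the markers was not tested. Irf3, the constitutive partner of Irf7, did not pass (log2 fold change -0.28, edgeR adjusted p = 0.102); it was chosen after its values were seen.

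Of 20 sensors and adaptors 8 fell (5 with a filter at 5 CPM) and 3 rose, and the share called, 55.0%, was near that of all genes. Tlr7, an endosomal receptor of single-stranded RNA, was at 0.225, 0.977 and 0.275 CPM in AEL, compared with 22.1, 24.3 and 28.6 CPM in NC. Ifi204, a DNA-binding protein whose close relatives may share its reads, fell 15.4-fold, a log2 fold change of -3.94 that was -4.92 without AEL replicate 3. Tmem173, which encodes the adaptor STING, fell to 1.13 ± 1.03 CPM in AEL, compared with 8.78 ± 1.25 CPM in NC (SD, n = 3 each), and it no longer passed with NC replicate 1 or 3 removed. The 3 that rose were Mavs, the mitochondrial adaptor of MDA5 signaling, Traf6 and Trim25, named after their values were seen. Mavs was at 182, 119 and 137 CPM in AEL, compared with 71.9, 76.0 and 81.7 CPM in NC.

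Among the effector lists, 4 of 8 genes of the OAS family and RNase L fell and 0 rose. The share called in either direction, 50%, was near the 52.8% of all genes tested. All calls of this list were falls, and 29% of all genes tested fell. Oas2 fell 8.62-fold, Oasl2 6.56-fold and Oas3 3.55-fold, and the call of Oasl2 ended without NC replicate 2 or 3. On the log2 scale Oas2 was at -3.11 and at -3.86 without AEL replicate 2, and Oasl2 was at -2.71 and at -3.86 without AEL replicate 1. AEL replicate 3 was the lowest AEL library for all 8. Oas1a, chosen after its values were seen, had 11.3, 14.9 and 1.65 CPM in AEL, compared with 16.9, 21.5 and 18.7 CPM in NC. Oas1a and Oas1g, the second also chosen after its values were seen, are close copies, and reads may be split between them. Oasl1 stood above the NC mean in each AEL library, where the other synthetase genes stood below it except Oas1g in AEL replicate 2, at 106% of the NC mean.

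**Figure D4:**
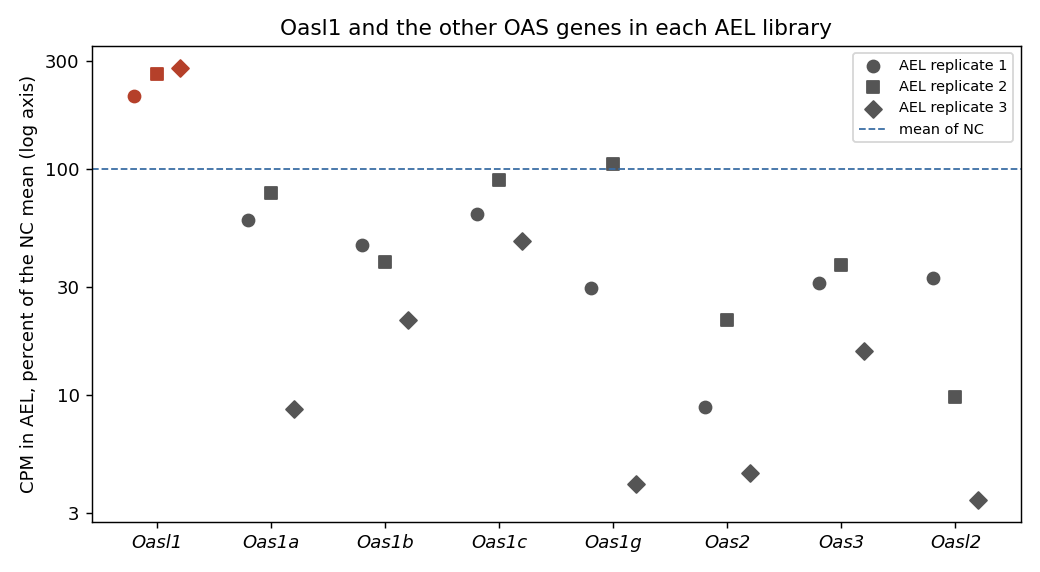
CPM in each AEL library as a percentage of the NC mean, on a log axis, for Oasl1 (red) and the other oligoadenylate synthetase genes (grey), with the NC mean as a dashed line. In AEL replicate 3, Oasl1 stands at 281% and the other genes between 3.43% and 48.0%.

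Of 9 tested IFIT and IFITM genes 7 fell and 0 rose, so that 77.8% were called, against 52.8% of all genes tested. The number lower was 4 without NC replicate 1 or 3 and 4 with a filter at 5 CPM. Ifitm2, a membrane protein that blocks viral entry, was at 9.12, 10.9 and 3.20 CPM in AEL, compared with 89.9, 100.5 and 85.7 CPM in NC. Ifitm1 was at 0, 1.30 and 0 CPM in AEL, compared with 7.74 to 10.6 CPM in NC, and removing any single NC library ended its call. Ifitm6 was at 0.338, 23.1 and 3.29 CPM in AEL and 91.0 to 98.8 CPM in NC, with AEL replicate 2 the highest, as for the summed neutrophil markers. Its call ended without AEL replicate 3 or any single NC library. The neutrophil sum was lowest in AEL replicate 1, which was the lowest AEL library for 1 of the 7 genes of this list without a tie. AEL replicate 3 was the lowest for 5 of them. Ifit2, a relative of Ifit3 chosen after its values were seen, had 60.5, 39.6 and 6.04 CPM in AEL, compared with 38.2, 31.1 and 34.8 CPM in NC, so that replicate 3 alone lay below the NC libraries. Ifit2 also lies on chromosome 19, whose genes had median differences of 0.05, -0.05 and -0.87 in AEL replicates 1, 2 and 3. Their part in the value of Ifit2 was not tested.

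Of 5 tested genes of ISG15 conjugation 3 fell and 1 rose, a share called of 80%, against 52.8% of all genes tested. Ube2l6, the enzyme that carries ISG15 to its targets, fell to 86.5, 36.9 and 34.9 CPM in AEL, compared with 269, 308 and 332 CPM in NC. Uba7, the enzyme that activates ISG15, fell by 1.22 on the log2 scale. The gene that rose was Uba1, the activating enzyme of ubiquitin and not of ISG15, which had a log2 fold change of 0.66. Usp18, which removes ISG15 and restrains the receptor, was at 8.33, 3.15 and 2.47 CPM in AEL, compared with 10.3, 13.2 and 12.7 CPM in NC. The log2 fold change was -1.38 and just missed the threshold (edgeR adjusted p = 0.0514), and it passed under 7 of the 17 alternatives, DESeq2 among them (adjusted p = 0.0222).

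Of 38 other interferon-stimulated genes tested 24 fell and 0 rose, or 1 rose with library totals alone or without AEL replicate 1 or 3. The share called was 63.2%, against 52.8% of all genes tested. Slfn5, a Schlafen family gene, was at 0.113, 0.760 and 0.275 CPM in AEL, compared with 23.0, 27.8 and 30.4 CPM in NC, 68.6-fold lower (log2 fold change -6.10, and -6.93 without AEL replicate 2). Iigp1, an immunity-related GTPase, was at 0.225, 0 and 0 CPM in AEL, compared with 6.45, 6.38 and 7.14 CPM in NC. Ddx60, a helicase-like gene, was at 0, 1.09 and 0 CPM in AEL, compared with 9.68 to 13.0 CPM in NC. Rsad2, which encodes viperin and was chosen after its values were seen, had 23.9, 13.1 and 6.86 CPM in AEL, compared with 145, 266 and 255 CPM in NC.

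Of 12 negative regulators 4 fell and 1 rose, or 2 rose with library totals alone, with quantile normalization or without AEL replicate 1. The share called, 41.7%, was below the 52.8% of all genes. Socs3, a feedback inhibitor of cytokine receptors, fell 8.31-fold (log2 fold change -3.06, and -3.66 without AEL replicate 2), and Nlrc5, an interferon-inducible activator of MHC class I genes that is also described as a brake on interferon signaling, fell 4.08-fold. Ptpn6, the phosphatase SHP-1 of blood cells, fell to 46.2 ± 6.47 CPM in AEL, compared with 160 ± 14.2 CPM in NC (SD, n = 3 each). The gene that rose was Pias2, named after its values were seen, with a log2 fold change of 0.55.

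Over the 6 libraries, the genes with a CPM pattern most like that of Irf7 were Ostf1, Apoe and Clcn2, with Pearson correlations of log2(CPM + 1) of 0.9995, 0.9988 and 0.9979. Clcn2, for example, was at 32.0, 36.6 and 5.03 CPM in AEL, compared with 89.7 to 93.3 CPM in NC. For Oasl1 they were Tef, Mtpn and Csrp3, at 0.9994, 0.9986 and 0.9983. These are the highest of many genes over 6 points that fall into 2 groups, and they serve only to show genes of a similar pattern. The order of the libraries within NC was not always the same. Clcn2 was at 93.3 and 91.2 CPM in NC replicates 2 and 3, and Irf7 was at 53.8 and 55.6 CPM.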

How the data were processed

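The authors deposited one table of whole-number counts per gene for the 6 libraries, although its name says CPM; the values sum to 8171676 to 9945330 per library. Per the submitters' processing notes, mm10 and edgeR 3.32.1 are mentioned, without the step they served. The aligner, the counting tool and any use of strand are not given in sources used here. Every deposited gene reached 1 CPM in at least 2 libraries.

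The 12427 of 13007 genes that reached 1 CPM of the library total, without TMM scaling, in 3 libraries or more were tested with edgeR 4.0.16 (R 4.3.3), TMM scaling, group as the only term and Benjamini-Hochberg adjustment at 0.05. SE is the absolute log2 fold change over the square root of the F statistic. Alternatives were limma 3.58.1, DESeq2 1.42.0 (26 adjusted p-values NA), other scalings, filters and pseudocounts, a replicate block and each library left out with the tested genes kept. The test was checked on simulated counts that gave both groups the same spread. The spread here was 44.2% in AEL and 9.15% in NC, and that check does not cover such unequal groups. Intervals and the limit of 3 counts cover counting error only. No 2 libraries of a group agreed within sampling noise (chi-square per degree of freedom 4.82 to 59.0). Since the titles name no animals, the p-values measure only how these samples spread, which may be technical.

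Positions, overlaps and exon lengths came from GENCODE M21, and promoters and chromosomes from RefSeq GRCm38.p6. The genes and lists were chosen with earlier results of these data known. Genes named from the lists were the 3 called genes with the largest change, provided they averaged at least 5 CPM in 1 group, with Ifnar1, Ifnar2, Jak1, Tyk2, Usp18, Irf1 and Irf8 always; others are marked, and 1 further gene is not reported here. The T and NK cell markers, 5 of 8 found, summed to 0.225 to 0.915 CPM in AEL and 48.6 to 54.4 CPM in NC.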

Additional observations from a re-analysis of the deposited data

How the results depend on the processing

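Bst2, Oasl1, Ifit3 and Mx1 kept their direction and their call under every alternative that gave a value; Mx1 gave none with a filter at 5 CPM. Irf9 had a log2 fold change of -0.77 with library totals alone and did not pass (adjusted p = 0.0525). With each library left out in turn, Irf7 ranged from -1.89 to -1.15 and Irf9 from -1.27 to -0.67, and both stayed negative. Ifih1, which never passed, became 0.15 with library totals alone and ranged from -0.081 to 0.088 with a library left out. Jak1, which never passed, changed sign to -0.0064, -0.0064 and -0.0058 with limma at pseudocounts of 1, 0.5 and 5 CPM and to -0.0060 with the replicate block, and ranged from -0.047 to 0.25 with a library left out. Of wider genes at or near 0 in AEL, Ddx60 reached -9.59 and Ifitm1 -9.34 without AEL replicate 2, and Iigp1 -8.88 without AEL replicate 1; values fitted with AEL libraries at 0 are no bounds. Ifitm6 ranged from -5.57 to -2.80, Tmem173 from -3.70 to -2.36, Tlr7 from -6.51 to -5.26 and Usp18 from -2.03 to -1.06 with a library left out. The number of analysed genes called lower was 3 to 5 with a library left out, and the number called higher stayed at 1. Of the wider genes 44 to 62 were called lower and 6 to 11 higher with a library left out, and 11 were called higher with library totals alone. Over all genes 2662 to 3921 were called lower and 1915 to 3375 higher with a library left out. Among called genes 45.2% were higher with TMM scaling, 55.2% without it (median over all genes 0.14 in log2 fold change) and 55.5% after quantile normalization (median 0.11). The cause of these changes was not tested. No pairing by replicate number was seen, as deviations of same-numbered libraries correlated at 0.08, -0.02 and -0.03. The labels do not say whether same-numbered samples belong together. With the replicate block 5479 genes were called in place of 6563, with 5 analysed genes lower and 1 higher. Ifit3 and Mx1 in AEL rest on 7 and 3 counts in all, so differences among AEL libraries were not detectable for Mx1 at this depth.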
